A study of Mus musculus with 6 samples.

Results

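The 36 genes described here belong to the amino-acid response and to cytosolic aminoacyl-tRNA synthesis, and were measured among 13535 genes in sorted mouse beta-cells. They were chosen by symbol, and all 36 were found in the deposited table: ATF4-type genes of amino-acid synthesis, transport and stress (17 genes), and cytosolic aminoacyl-tRNA synthetases (19 genes). The choice was made with the comparison of pseudo-islets with pseudo-beta already known, so the members' differences in that comparison are a description. Counts of the members that a test over all genes called in it are printed beside the share of all genes, and nothing is read from them. Differences between experiments played no part in the choice and are tested.

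The samples were beta-cells from C57BL/6JRj male mice, 12 weeks old and WT by their label. Islet cells were separated by FACS and left to reaggregate for 5 days, either as pseudo-islets, in which alpha-, beta- and delta-cells are mixed, or as pseudo-beta, built from beta-cells alone. Beta-cells were then sorted back out of both kinds of cluster, and libraries were made from 5 ng of their RNA. Each group has 3 samples, 1 from each of the experiments that the sample titles number 35, 36 and 37. The clusters are rebuilt from dissociated cells, and the number of mice behind a sample is not given in the sources used here.

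Levels are normalized counts, which sum to between 17994346 and 19635287 per library. The 10 genes listed as beta-cell markers were all in the table and took 38.5% to 42.5% of a library. *Gcg*, the glucagon gene of alpha-cells, stood at 1763, 941 and 2094 normalized counts in experiments 35, 36 and 37, against 36.1, 14.1 and 0 for pseudo-beta, and further markers of other cells are given with the results. Markers of acinar cells (0 of 12 genes) and of stromal cells (0 of 8) were not among the genes of the table.

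When amino acids run short, the kinase GCN2 phosphorylates the translation factor eIF2, general translation slows, and the mRNA of the transcription factor ATF4 is translated. Stress of the endoplasmic reticulum, to which beta-cells are prone because of their insulin synthesis, converges on the same step through the kinase PERK. ATF4 binds composite C/EBP-ATF elements near genes of amino-acid synthesis and uptake and of several synthetases, the enzymes that load each amino acid on its tRNA.

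Such an element can be written as TGATGNAA, or TTNCATCA on the opposite strand, where N is any base. The RefSeq promoter window of 300 bases, from 250 before to 50 after the transcription start on GRCm38.p6, was found for 28 of the 36 members. A match on either strand was present in 10 of the 28 members (35.7%), and in 3.97% of all 32851 windows. It was present in 2.65% of the 9801 genes of the expression table that have a window. A match is a description of the letters and not a binding site. In 7 members it lay wholly before the start, and the stretches of 6 of them are printed 5′ to 3′ on the strand of the gene with the match in capitals, because they show how different the places of the element are among enzymes, transporters and synthetases.
Asns: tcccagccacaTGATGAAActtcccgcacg
Pycr1: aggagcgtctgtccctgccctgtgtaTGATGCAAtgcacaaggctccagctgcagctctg
Slc7a11: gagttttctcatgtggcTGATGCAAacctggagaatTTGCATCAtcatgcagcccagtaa
Chac1: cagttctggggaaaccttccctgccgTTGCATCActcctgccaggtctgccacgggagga
Gars: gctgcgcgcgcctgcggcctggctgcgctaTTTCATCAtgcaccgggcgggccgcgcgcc
Tars: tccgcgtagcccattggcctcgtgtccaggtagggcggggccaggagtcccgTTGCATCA
The stretch of *Asns* is chr6:7693214-7693243 on the minus strand, and its match begins at -23 from the RefSeq start. That of *Pycr1* is chr11:120643818-120643877 on the minus strand, with the match at -103. *Slc7a11*, at chr3:50443637-50443696 on the minus strand, is the only one of the 6 with a pair of matches before the start, at -66 and -47. The stretch of *Chac1* is chr2:119351023-119351082 on the plus strand, and the match at -193 is the most distant of the 6. Those of the synthetases are chr6:55037941-55038000 on the plus strand for *Gars* (match at -30) and chr15:11399666-11399725 on the minus strand for *Tars* (at -15). The short stretch of *Asns* lies in an exon of the GENCODE M21 annotation, which reaches before the RefSeq start.

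**Figure D1:**
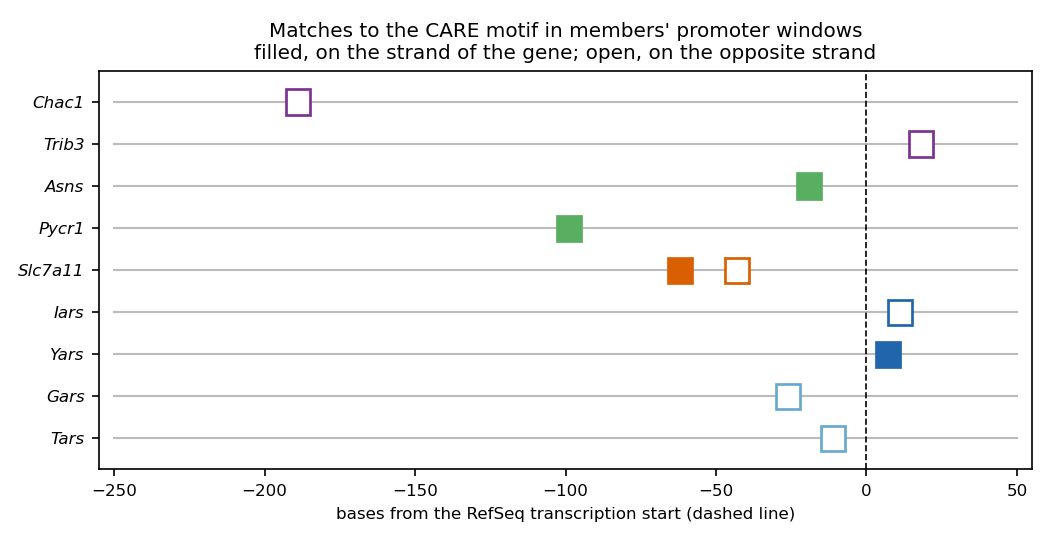
Places of the TGATGNAA matches (boxes) in the promoter windows of 9 of the 10 members that hold one, in bases from the RefSeq transcription start (horizontal axis), filled when on the strand of the gene and open when on the opposite strand. Matches lie from -193 in *Chac1* to 14 in *Trib3*, and those of *Trib3*, *Iars* and *Yars* are after the start.

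*Cbs* and *Psat1*, which had high ratios between the groups, hold no match in their windows. The 60 bases nearest to the start that are outside annotated exons are printed for comparison, for *Cbs* at chr17:31637239-31637298 and for the first of the 2 windows of *Psat1* at chr19:15925060-15925119, both on the minus strand.
Cbs: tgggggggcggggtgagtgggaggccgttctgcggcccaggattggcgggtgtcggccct
Psat1: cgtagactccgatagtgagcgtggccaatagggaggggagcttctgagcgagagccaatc
No match in a window says only that these letters are not in it. The median log2 fold change was 0.22 over the 10 members with a match and 0.16 over the 18 without one, and the ranges overlap (0.07 to 1.33 and -0.41 to 0.71). Of the 12 synthetases with a window 5 held a match, and of 14 mitochondrial synthetases with a window 0 did.

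Of the 36 members, 33 had a higher level in pseudo-islets than in pseudo-beta. The median of their log2 fold changes was 0.16, while 51.4% of all genes were higher and their median was 0.01. Above a mean of 200 normalized counts, 56.96% of genes were higher and the median was 0.03. The count of members was 28 of 36 when libraries were scaled without the 10 most abundant genes. In that setting 42.3% of all genes were higher and their median was -0.05. Under quantile normalization the count was also 28 (50.6% of all genes higher). It was 24 without pseudo-islets of experiment 35 (51.8%) and 23 without pseudo-beta of experiment 37 (49.5%). A log2 fold change compares pseudo-islets with pseudo-beta on log2(normalized counts + 1) in limma, and its standard error follows in parentheses. Library values are listed in the order of experiments 35, 36 and 37, with pseudo-islets before pseudo-beta. In these bulk samples fewer cells of a type and less RNA per cell cannot be told apart.

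The libraries of the 2 groups did not overlap for 7 members that were higher in pseudo-islets (*Asns*, *Cbs*, *Psat1*, *Phgdh*, *Mthfd2*, *Wars* and *Gars*) and for 1 that was lower (*Ddit3*). Over all genes, 5.63% did not overlap and were higher, and 5.13% did not overlap and were lower. With libraries scaled to equal sums, *Gars* and *Mthfd2* overlapped and the other 6 did not, while 3.57% of all genes did not overlap and were higher and 7.69% lower. Pseudo-islets were higher in 3 of 3 experiments for 16 members, against 18% of all genes and 22.8% of genes with a mean of at least 200. For *Ddit3* they were higher in 0 of 3, as for 15.1% of all genes and 13.3% of genes with a mean of at least 200. After Benjamini-Hochberg adjustment over the whole table, limma called 0 of 36 members at an adjusted p under 0.05 (0.0591% of all genes), and 7 had an unadjusted p under 0.05 (5.4% of all genes), of which 6 were higher (2.73%) and 1 lower (2.67%). With the experiment as a replicate block it called 1, *Wars* (0.539% of all genes, 0.436% called as higher), and 11 had an unadjusted p under 0.05 (11.9%), of which 10 were higher (6.69%) and 1 lower (5.22%).

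**Figure D2:**
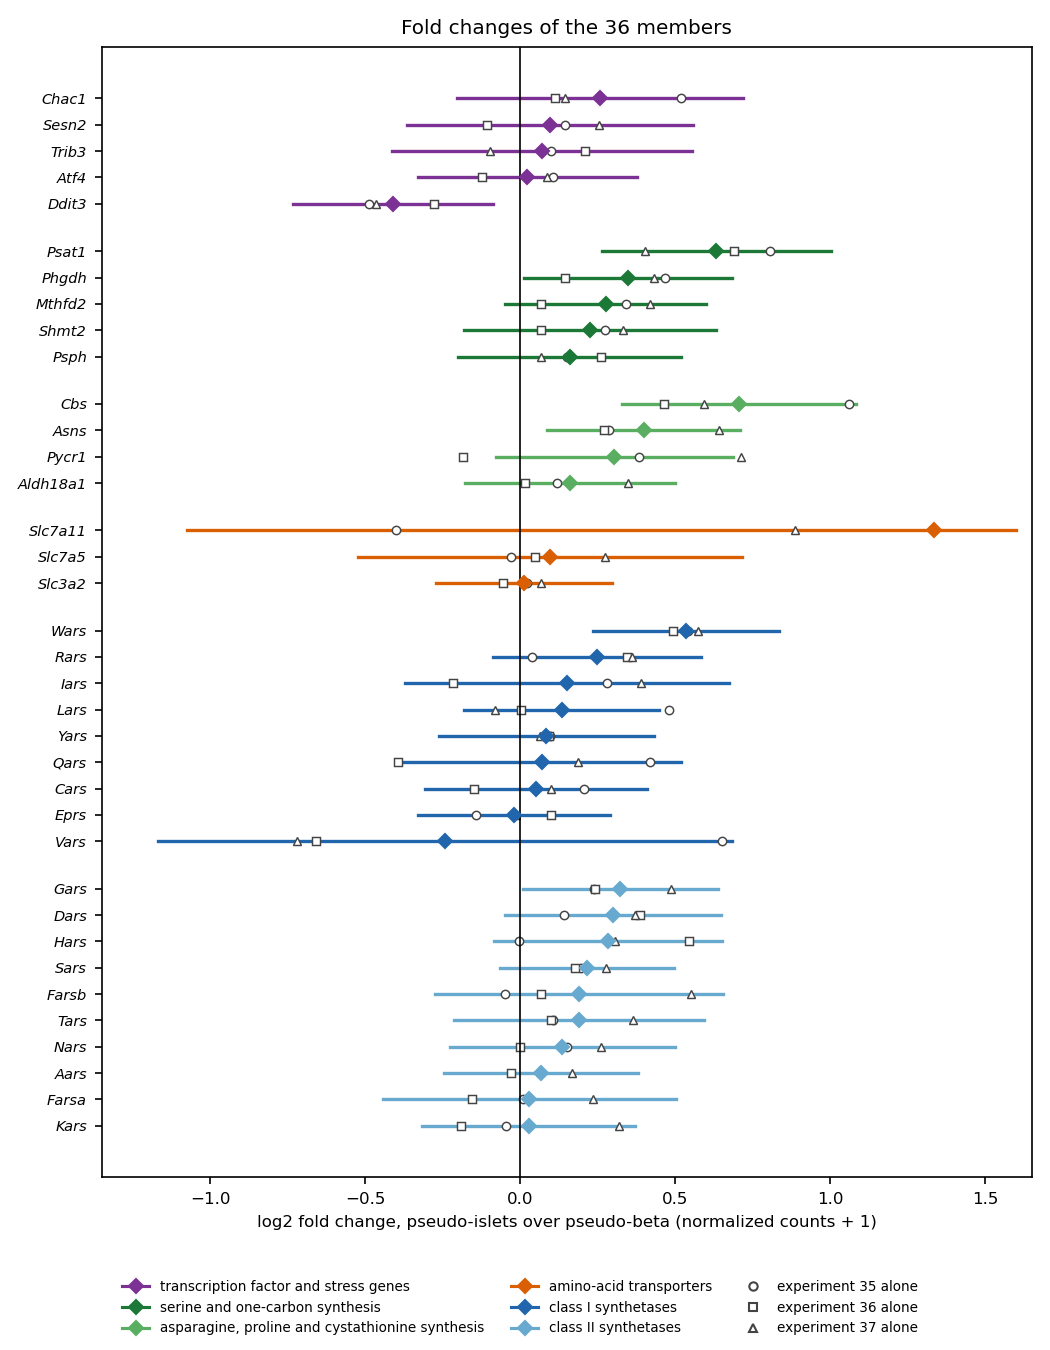
Log2 fold changes of the 36 members, pseudo-islets over pseudo-beta (horizontal axis, normalized counts + 1), with 95% confidence intervals from limma without the block as coloured lines by role, and the difference in each experiment alone as open marks. Most diamonds lie right of 0, *Cbs*, *Psat1* and *Wars* have all 3 marks at 0.40 or above, and *Slc7a11* has its interval and its mark of experiment 36 (3.52) beyond the axis.

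*Atf4*, the transcription factor that gives the response its name, had almost the same level in both groups. It stood at 2029, 1528 and 2084 normalized counts in experiments 35, 36 and 37, against 1885, 1664 and 1964 for pseudo-beta. The groups overlapped, experiment 36 was the lowest in both, and the log2 fold change was 0.02 (0.16), with a 95% confidence interval of -0.33 to 0.37. ATF4 is controlled mainly at translation, which these libraries do not measure. The gene lies on chromosome 15 of GRCm38 from 80255184 to 80257541.

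*Ddit3*, which encodes the stress transcription factor CHOP, was the member furthest below 0. It had 979, 1093 and 903 normalized counts against 1373, 1324 and 1246. Every library of pseudo-islets was below every library of pseudo-beta, and the log2 fold change was -0.41 (0.15). On chromosome 10 from 127290774 to 127296288, *Ddit3* overlaps the methionyl-tRNA synthetase gene on the opposite strand. Whether the counting used strand is not given in the sources used here. On the same strand the annotation has another protein-coding entry named *Ddit3* that overlaps it, with which it could share reads. The synthetase gene, *Mars1* in the table, had 3186, 2938 and 3029 normalized counts against 2181, 3100.0 and 2570, with the higher value in pseudo-islets in 2 of 3 experiments.

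*Chac1*, which degrades glutathione, had the highest log2 fold change among the stress genes at 0.26 (0.21). Its libraries held 1402, 855 and 1207 normalized counts against 979, 792 and 1092. Each experiment was higher in pseudo-islets, yet the groups overlapped, with experiment 36 low in both. Its log2 fold change was 0.10 without pseudo-islets of experiment 35, 0.13 without pseudo-beta of experiment 36 and 0.46 without pseudo-islets of experiment 36. *Sesn2*, a leucine sensor upstream of mTORC1, had 911, 727 and 649.9 against 823, 784 and 545, with a log2 fold change of 0.10 (0.21). *Trib3*, a pseudokinase that restrains ATF4, had 622, 501 and 399.9 against 581, 433 and 428, with 0.07 (0.22). For both genes experiment 35 was the highest and the groups overlapped. Without the library of pseudo-islets of experiment 35, or that of pseudo-beta of experiment 37, *Sesn2* and *Trib3* were not higher in pseudo-islets.

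All 5 genes of serine synthesis and mitochondrial one-carbon metabolism were higher in pseudo-islets, also under both other scalings, and their median log2 fold change was 0.28. Serine is made from a glycolytic intermediate by PHGDH, PSAT1 and PSPH in turn, and its carbon enters the mitochondrial folate pathway through SHMT2 and MTHFD2. *Psat1* lies on chromosome 19 from 15904678 to 15947337. Its libraries held 785, 768 and 759 normalized counts against 449, 476 and 574. The 3 libraries of pseudo-islets lay close together and all above pseudo-beta, by 0.81, 0.69 and 0.40 on the log2 scale in experiments 35, 36 and 37. The log2 fold change was 0.63 (0.17), and the mean of pseudo-islets was 1.54 times that of pseudo-beta. A processed pseudogene, *Gm3329*, overlaps *Psat1* on the opposite strand.

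*Phgdh*, the first enzyme of the route, had 1032, 998 and 1118 normalized counts against 746, 904 and 829.9. The lowest library of pseudo-islets and the highest of pseudo-beta, both of experiment 36, were the nearest pair, and the log2 fold change was 0.35 (0.15). The annotation names a processed pseudogene after it, *Phgdh-ps1*, with which it could share reads. *Mthfd2* had 3823, 3085 and 3185 against 3019.6, 2949 and 2381. The gap between the groups was small beside their spread. The log2 fold change was 0.28 (0.15), or 0.17 without pseudo-beta of experiment 37, and in experiment 36 the difference was only 0.07. *Shmt2* had a log2 fold change of 0.22 (0.18) and *Psph* one of 0.16 (0.16). Both were higher in pseudo-islets in 3 of 3 experiments with overlapping groups, *Shmt2* at 642, 599 and 534 against 532, 571 and 424 and *Psph* at 559.6, 609.7 and 593 against 504, 509 and 567.

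The 4 genes of asparagine, proline and cystathionine synthesis were also higher in pseudo-islets under all 3 scalings, and their median log2 fold change was 0.35. *Cbs*, which joins serine and homocysteine to cystathionine, had 1149.7, 860.2 and 982 normalized counts against 551, 624 and 650.3. No library of pseudo-beta reached the lowest of pseudo-islets, and the ratio was highest in experiment 35, where the difference was 1.06 on the log2 scale against 0.46 and 0.59. Its log2 fold change was 0.71 (0.17), and the ratio of the means, 1.64, was the highest of the 36 members. *Cbs* lies on chromosome 17 from 31608894 to 31637238.

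*Asns*, which makes asparagine, had the highest level per kilobase of exon of all members. It had 10239, 8952 and 9417 normalized counts against 8403, 7429.7 and 6037. All libraries of pseudo-islets were above those of pseudo-beta, experiment 35 was the highest in each group, and the difference was largest in experiment 37 (0.64, against 0.29 and 0.27). The log2 fold change was 0.40 (0.14), and the mean was 1.31 times as high. *Pycr1* and *Aldh18a1*, both enzymes of proline synthesis, had overlapping groups, with log2 fold changes of 0.30 (0.17) and 0.16 (0.15). *Pycr1* had 1721, 1493 and 1991 normalized counts against 1319, 1695 and 1216, with experiment 36 in the opposite direction. *Aldh18a1* had 2189, 2091 and 1952 against 2015, 2071 and 1533, which are near one another except for the low library of pseudo-beta in experiment 37.

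**Figure D3:**
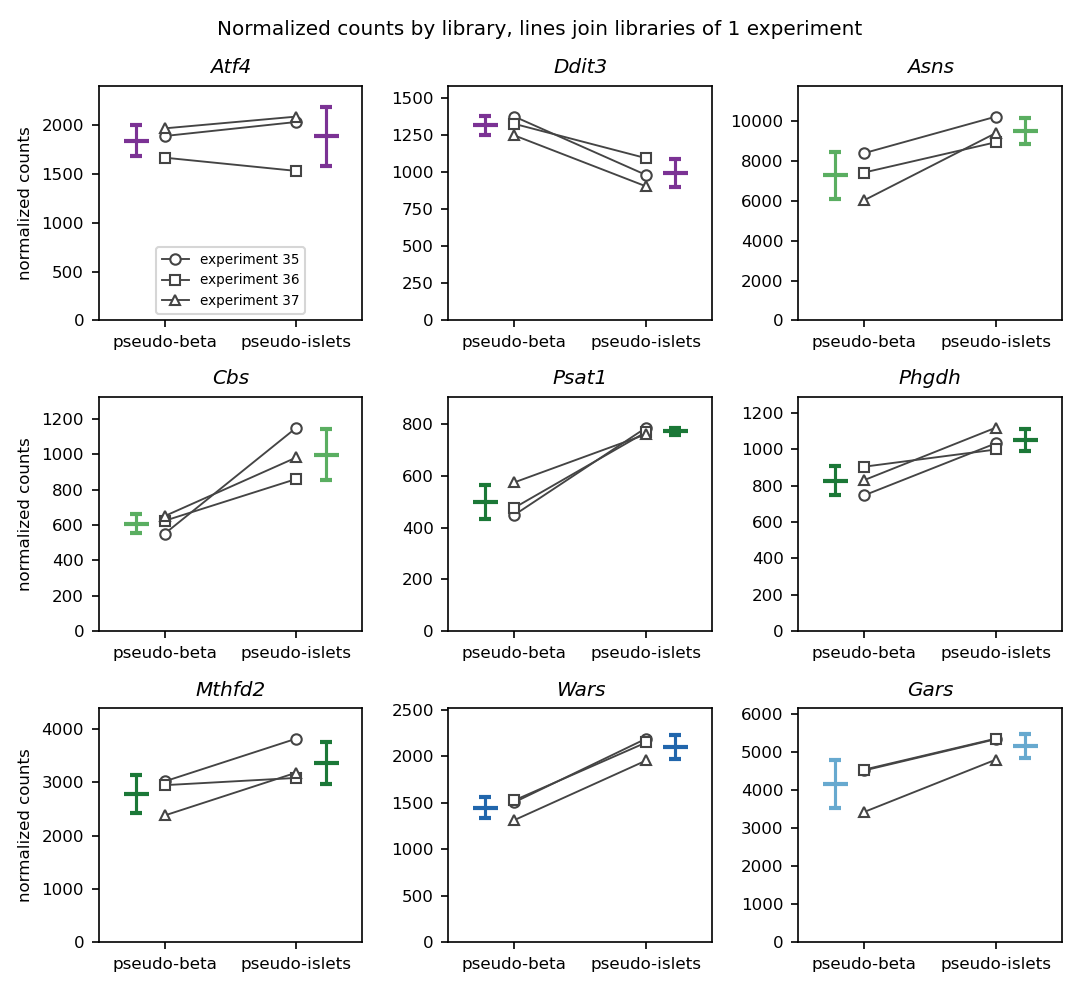
Normalized counts (vertical axes from 0) of *Atf4* and of the 8 members whose groups do not overlap, in pseudo-beta and pseudo-islets, with a line for each experiment and the mean ± SD of 3 libraries beside it in colour. The lines of *Ddit3* go down in all 3 experiments, those of the other 7 go up, and those of *Atf4* are nearly level.

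The amino-acid transporters differed little or could not be measured well. *Slc3a2*, the heavy chain shared by several carriers, had 7087, 6058 and 5990.2 normalized counts against 6973, 6302 and 5718, and its log2 fold change was 0.01 (0.13). Its partner in leucine uptake, *Slc7a5*, had 425, 399.6 and 763 against 434, 387 and 631, with 0.10 (0.28). In both groups experiment 37 was the highest for *Slc7a5* and the lowest for *Slc3a2*, and the groups overlapped. *Slc7a5* has a gene on the opposite strand, *Gm20388*, that overlaps it. *Slc7a11*, the cystine carrier, was low, at 32.4, 24.2 and 97.4 against 43.1, 1.2 and 52.2. Its log2 fold change of 1.33 (1.09) rested on the library of pseudo-beta of experiment 36 and was -0.15 without it. It is the one member below 10 normalized counts in any library.

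Of the 19 cytosolic synthetases, 17 were higher in pseudo-islets, and the median log2 fold change was 0.14. Class I synthetases, which share a Rossmann-type fold, were higher in 7 of 9 (6 of 9 under both other scalings) with a median of 0.08. Class II synthetases, which are built on an antiparallel sheet, were higher in 10 of 10 (8 of 10 under both other scalings) with a median of 0.19. Without pseudo-beta of experiment 37, class I was higher in 5 of 9 with a median of 0.0002 and class II in 5 of 10 with a median of 0.0068. Without pseudo-islets of experiment 35, class I was higher in 4 of 9 with a median of -0.002. The shares of all genes that were higher in these settings are given above with the counts of all members. The difference between the classes was not tested.

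*Wars*, for tryptophan, stood out within class I and lies on chromosome 12 from 108860030 to 108894174. It had 2189, 2148 and 1954 normalized counts against 1506, 1526 and 1314. The lowest library of pseudo-islets was far above the highest of pseudo-beta, and the 3 experiments gave much the same difference (0.54, 0.49 and 0.57 on the log2 scale). The log2 fold change was 0.53 (0.14), and the mean was 1.45 times as high. *Wdr25* overlaps *Wars* on the opposite strand. *Rars*, for arginine, was next in class I at 0.25 (0.15), with 1457, 1536 and 1384 normalized counts against 1419, 1209 and 1079. It was higher in pseudo-islets within each experiment, though nearly equal in experiment 35. The groups overlapped because its library of pseudo-islets of experiment 37 was below that of pseudo-beta of experiment 35.

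At the other end of class I, *Vars*, for valine, had 224, 102 and 226 normalized counts against 142, 161 and 372. Its standard error was the largest of the 19 synthetases, experiments 36 and 37 were lower in pseudo-islets and experiment 35 higher, and the log2 fold change was -0.24 (0.42). *Eprs*, the joint enzyme for glutamate and proline with a class I and a class II domain, had 9361, 9319 and 7728 against 10340.1, 8708 and 7805. Its groups overlapped fully, with a log2 fold change of -0.02 (0.14). The other 5 of class I (*Iars*, *Lars*, *Yars*, *Qars* and *Cars*) had log2 fold changes from 0.05 to 0.15 with standard errors from 0.14 to 0.24.

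*Gars*, for glycine, led class II and lies on chromosome 6 from 55038007 to 55079500. It had 5356, 5342 and 4805 normalized counts against 4539.8, 4518 and 3428. The groups did not overlap, and experiment 37 was the lowest in both. The log2 fold change was 0.32 (0.14), or 0.19 without pseudo-beta of experiment 37, and the mean was 1.24 times as high. *Dars*, for aspartate, had 2385, 2521 and 2044 against 2161, 1929.6 and 1581, and a log2 fold change of 0.30 (0.16). It was higher in pseudo-islets within each experiment, but its library of pseudo-islets of experiment 37 was below that of pseudo-beta of experiment 35.

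The lowest log2 fold changes in class II were those of *Kars*, for lysine, at 0.03 (0.15), and of *Farsa*, the alpha subunit for phenylalanine, at 0.03 (0.21). *Kars* had 2645, 2177 and 2474 normalized counts against 2730.3, 2487 and 1983, and *Kars-ps1* is a pseudogene named after it. *Farsa* had 538, 499 and 426 against 535, 556 and 362. For both genes, experiment 36 was higher in pseudo-beta and experiment 37 higher in pseudo-islets. *Farsb*, the beta subunit of the same enzyme, had 0.19 (0.21), so the 2 subunits differed by less than their standard errors. The other 5 (*Hars*, *Sars*, *Tars*, *Nars* and *Aars*) had log2 fold changes from 0.07 to 0.28. Other genes overlap *Hars* (*Hars2*), *Yars* (*C77080*), *Farsb* (*Sgpp2*), *Shmt2* (*Ndufa4l2*) and, on the same strand, *Aars* (*Exosc6*).

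Per kilobase of annotated exon, over all 6 libraries, the members covered a wide range of levels. *Asns* was first at 3076 ± 548 normalized counts per kilobase (SD, n = 6), then *Nars* at 1882 ± 301, *Slc3a2* at 1801 ± 158, *Gars* at 1496 ± 228 and *Sars* at 1152 ± 131. *Nars* and *Slc3a2* lie within their spread of each other. *Mthfd2* (881 ± 133), *Atf4* (788 ± 92.7), *Ddit3* (673 ± 112) and *Chac1* (644 ± 139) followed, and the last 2 of these lie within their spread of each other. *Psat1* (149 ± 36.3) and *Cbs* (107 ± 31.3), which had high ratios between the groups, ranked 29 and 32 of 36 by this level. The length joins all annotated exons of a gene and can exceed that of its mRNA, which lowers the rank. *Eprs*, with 18.1 kilobases, ranked 14 although its mean was 8877 normalized counts. *Vars* (36.5 ± 17) and *Slc7a11* (3.0 ± 2.33) were the lowest.

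The experiments themselves, averaged over the 2 kinds of cluster, were then compared in a fit with group and experiment as terms. At an adjusted p under 0.05 in limma's moderated F test, 4 of 36 members were called, with 6.32% of all genes called, and 19 had an unadjusted p under 0.05 (23.5% of all genes). The limma adjusted p was 0.0303 for *Nars*, 0.0353 for *Slc7a5*, 0.0385 for *Tars* and 0.0473 for *Iars*. *Nars*, for asparagine, had 10160.1, 7953 and 7607 normalized counts in experiments 35, 36 and 37, against 9148, 7965 and 6357 for pseudo-beta. In both kinds of cluster it was highest in experiment 35 and lowest in experiment 37, with a difference of -0.47 between experiments 37 and 35 on the log2 scale.

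*Tars*, for threonine, kept the same order, at 3963, 3212 and 3001 against 3686, 2996 and 2335, and its difference between experiments 37 and 35 was -0.53. *Iars*, for isoleucine, had 2018, 1550.3 and 1316 against 1660.5, 1802 and 1005, with a difference of -0.67. Experiment 37 was the lowest in both groups for *Iars* too. *Slc7a5* went the other way, with experiment 37 above experiment 35 by 0.69. None of these 4 members was called when a library of experiment 35 or 37 was left out, and fewer of all genes were called too. The test called 1 member without pseudo-islets of experiment 35 (*Vars*, beside 2.93% of all genes). It called 0 without pseudo-beta of experiment 35 (2.85%), without pseudo-islets of experiment 37 (1.07%) or without pseudo-beta of experiment 37 (0.532%). Without a variance trend it called 0 members and 0 genes.

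Experiment 37 was below experiment 35 in 17 of 19 synthetases, with a median of -0.28 on the log2 scale, while 49.8% of all genes were below and their median was 0.00. Among genes with a mean over 200 normalized counts, where all 19 synthetases lie, 58.9% were below and the median was -0.08. The exceptions were *Qars*, for glutamine, at 0.00 and *Vars* at 0.69. The count was 17 under scaling without the 10 most abundant genes, where 45.9% of all genes were below. It was 16 under quantile normalization (52.5% of all genes), where *Lars* was a further exception. Within pseudo-islets alone it was 18 of 19 (49.7% of all genes), and within pseudo-beta alone 16 of 19 (50.3%). Of the 17 other members 9 were below, with 11 within pseudo-islets alone and 9 within pseudo-beta alone. Among the synthesis enzymes *Asns*, *Mthfd2*, *Shmt2* and *Aldh18a1* differed by -0.28 to -0.30, near the median of the synthetases, and *Psat1*, *Phgdh*, *Psph*, *Pycr1* and *Cbs* by 0.01 to 0.15. Summed over the 19 synthetases, the share of a library was 0.329%, 0.296% and 0.259% in experiments 35, 36 and 37 for pseudo-islets, against 0.31%, 0.295% and 0.237% for pseudo-beta. Both groups kept the same order, and pseudo-islets were higher within each experiment, by the least in experiment 36. What differed between the experiments beyond their number is not given in the sources used here.

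**Figure D4:**
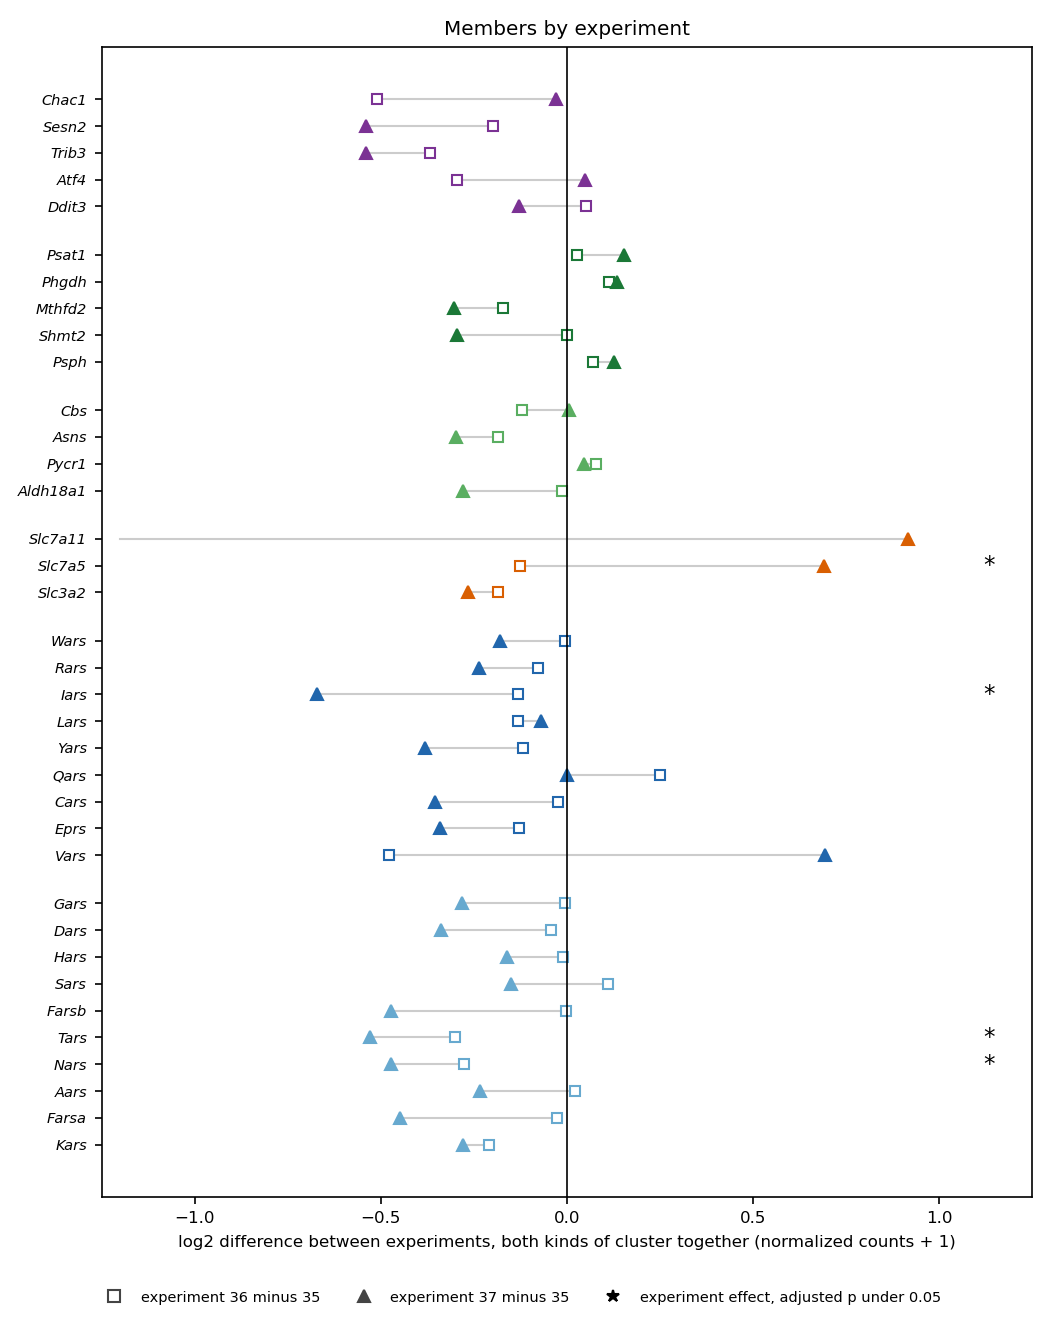
Differences of experiments 36 (open squares) and 37 (triangles) from experiment 35 on the log2 scale (horizontal axis, normalized counts + 1, both kinds of cluster together) for the 36 members, coloured by role, with a star at the 4 members called by the moderated F test. Triangles of the synthetases lie left of 0 except for *Qars* and *Vars*, and *Slc7a11* has its square at -2.37, beyond the axis.

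Other genes of the pathway were compared in the same fit of pseudo-islets with pseudo-beta. Of 97 genes on 7 further lists 0 were called by limma without the replicate block (0.0591% of all genes) or with it (0.539%). In each limma fit 2 of the 97 had an unadjusted p under 0.05, beside 5.4% of all genes without the block and 11.9% with it. They were *Slc38a9*, which was lower in pseudo-islets, and *Aldh1l2*, a mitochondrial folate enzyme, which was higher at 0.41 (0.18). Mitochondrial synthetases load tRNAs inside the organelle, most of them from genes of their own, and all 17 listed were measured. The list holds no separate gene for glycine or lysine, so *Gars* and *Kars* are counted only with the cytosolic members. The median log2 fold change of the 17 was -0.05 and 8 of 17 were higher in pseudo-islets, beside 17 of 19 and 0.14 for the cytosolic ones. The difference furthest from 0 among them was that of *Sars2*, at 0.43 (0.29). The 5 scaffold proteins and remaining cytosolic synthetases (*Mars1*, *Aimp1*, *Aimp2*, *Eef1e1*, *Tarsl2*) were higher in 5 of 5, with a median of 0.17 and a highest value of 0.24 for *Aimp2*.

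Of the other amino-acid response genes 8 of 13 were higher, with a median of 0.08, and *Vegfa*, for an angiogenic factor, was furthest from 0 at -0.44 (0.39). The kinases, subunits and phosphatase of eIF2 were higher in 9 of 13, with a median of 0.11. Among them *Eif2ak4*, which encodes GCN2, was at -0.31 (0.31). Of the other amino-acid transporters 6 of 12 were higher. *Slc38a9*, the lysosomal arginine sensor of mTORC1, had 98.4, 105 and 43.2 normalized counts against 190.1, 199 and 127. Its groups did not overlap, but with a log2 fold change of -1.13 (0.38) its adjusted p was 0.848 in limma without the block and 0.106 with it. The other one-carbon and amino-acid synthesis genes were higher in 9 of 20, with *Aldh4a1*, which breaks down proline, at -0.53 (0.26). The mTORC1 nutrient-sensing genes were higher in 11 of 17, with *Depdc5* at -0.38 (0.29).

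**Figure D5:**
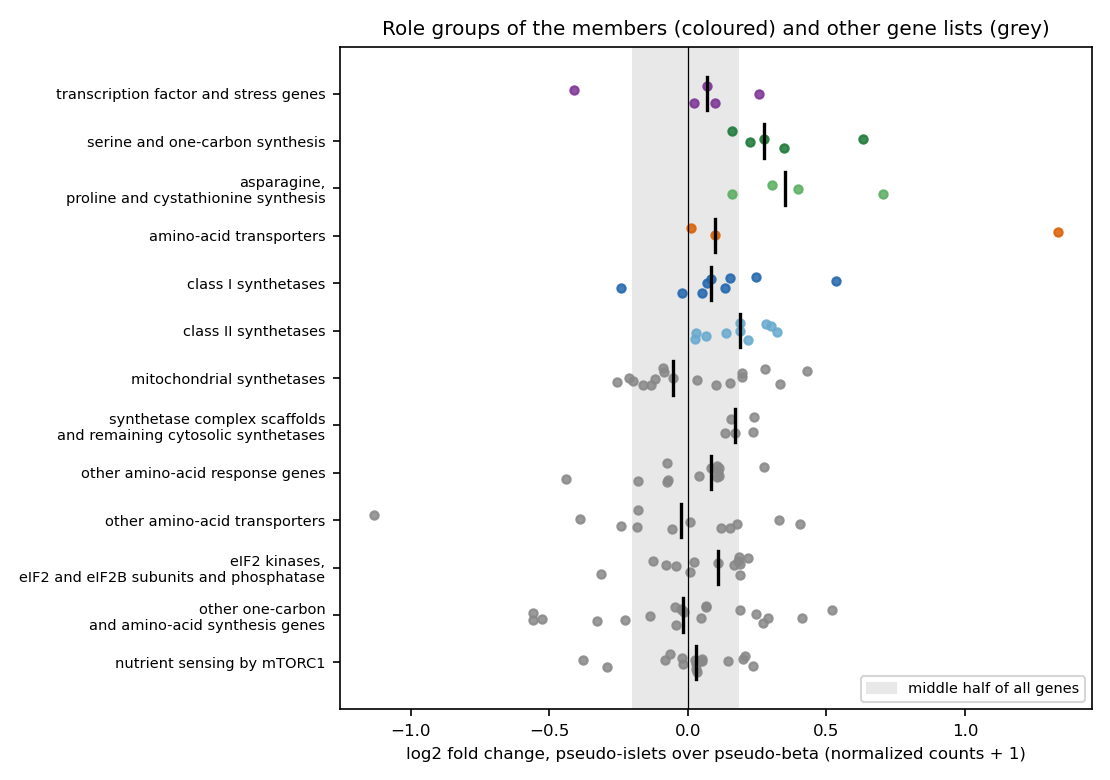
Log2 fold changes of pseudo-islets over pseudo-beta (horizontal axis, normalized counts + 1), 1 point for each gene, in the 6 role groups of the members (coloured) and the 7 other lists (grey), with the median of each list as a black bar and the range from the lower to the upper quartile of all genes shaded. The medians of the synthesis enzymes (0.28 and 0.35) lie right of the shaded band, that of class II synthetases (0.19) lies just right of its edge (0.18), and that of the mitochondrial synthetases (-0.05) lies inside it.

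Between experiments, 7 of these 97 genes were called in the moderated F test, beside 6.32% of all genes. Among them were *Nupr1* and *Ppp1r15a*, both stress genes, *Rragc* and *Flcn* of the mTORC1 branch, *Eif2b5* and *Mthfd1*, all named after their values were seen. *Ppp1r15a*, which encodes GADD34, a subunit of the eIF2 phosphatase, had 1612, 1475 and 2960.2 normalized counts against 1576, 1762 and 2941 (limma adjusted p = 0.00352). It was highest in experiment 37 in both groups, where most synthetases were lowest.

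Blood and endothelial cells had been gated out at the sort. Markers of other cells differed between the groups along with the members, and their part in these differences was not tested. The summed level of the 5 of 12 alpha-cell markers in the table was 7567 to 11521 normalized counts in pseudo-islets and 5026 to 6191 in pseudo-beta. For delta-cells (3 of 8 markers) it was 488 to 734 against 404 to 423, with *Sst* at 190.2, 146 and 210.2 against 0, 0 and 4.74. For PP-cells (3 of 4) it was 1331 to 5935 against 662 to 2749, and for immune cells (3 of 10) 1825 to 2788 against 1061 to 1507. The summed PP-cell markers were higher in pseudo-islets within each experiment, at 5935, 1331 and 3091 against 2749, 662 and 1346. With the replicate block limma called all 3 of them (adjusted p = 0.00267 for *Ppy*, 0.0259 for *Pyy* and 0.0319 for *Etv1*), and *C1qa* of the immune markers (adjusted p = 0.00305), all higher in pseudo-islets. It also called *Gcg*, *Ttr* and *Sst* as higher, and without the block *Gcg* and *Sst*. The 1 of 8 endothelial markers, *Esam*, was at 41.4 to 74.4 against 56.5 to 89.5. The 36 members together made up 0.425% to 0.52% of a library in pseudo-islets and 0.378% to 0.48% in pseudo-beta.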

How the data were processed

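Sorted beta-cells of 3 pseudo-islet and 3 pseudo-beta samples gave RNA that was sequenced as read pairs of 75 bases. The deposited signal values are normalized counts, which the authors made by aligning reads to GRCm38 with STAR 2.7.6a, estimating counts with RSEM 1.3.1 and dividing by size factors of DESeq2 1.26.0. The annotation release, any filter on low genes and the total reads are not given in the sources used here. Low values were whole multiples of 1 step for 26.8% to 42.9% of values (tolerance 0.02 of a step), so reads were not recovered and the depth is unknown. Each of the 13535 genes reached 10 normalized counts in 3 or more libraries. The authors also deposited a mean over all samples, and log2 fold changes with standard errors, a test statistic (unit score) and p-values of their own comparison, which were not used.

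Values were tested as log2(value + 1) with limma 3.58.1 in R 4.3.3 (moderated by a variance trend, Benjamini-Hochberg over all 13535 genes), without the experiment number as the main fit and with it as a replicate block. The titles give each group 1 sample of experiments 35, 36 and 37. Deviations from the group means correlated at 0.119, 0.121 and 0.325 within experiments and at -0.203 to 0.0922 across them (minimum 0.1), so the numbers were taken to pair the samples. An exact two-sided permutation test of 3 against 3 cannot go below 0.1 and was not used. The study counts each sample as biologically independent, and whether mice were pooled is not given in the sources used here. The comparison of pseudo-islets with pseudo-beta was also run on simulated data of all 13535 genes with normal noise on the log2 scale. In these, 200 genes were changed, all with a mean level above about 50, so the shares recovered do not cover lower genes. Of 2-fold changes 32% were recovered without the block and 86% with it, and of 4-fold changes 92% and 100%. The 1.5-fold changes were recovered in 0% without the block and 41% with it. Unchanged genes called were 0 without the block, and 11, 17 and 23 with it for 1.5-, 2- and 4-fold changes.

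The members and lists were chosen with earlier results of these data known. Values in every library are given for *Atf4*, for members whose groups do not overlap and for the members at both ends of each role by log2 fold change (2 at each end), and other members may be named. Of the other lists, called genes and the one furthest from 0 with a mean of at least 50 are named. Positions and overlaps come from GENCODE M21 and promoters from RefSeq, and 1 promoter stretch and 1 gene are not reported here. Python 3.11.15, pandas 2.3.3 and matplotlib 3.10.9 were used for counts and plots. Alternatives were another scaling, quantile normalization, a pseudocount of 10, no variance trend, at least 10 in every library (11894 genes), and each library or experiment left out.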

Additional observations from a re-analysis of the deposited data

How the results depend on the processing

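Of all genes, 8 were called between pseudo-islets and pseudo-beta without the block. The count was 2 with scaling without the 10 most abundant genes, 2 with quantile normalization, 2 without a variance trend, and 0 to 13 when single libraries were dropped. The replicate block, which pairs the samples by experiment, gave 73, and with the block it was 82 under the other scaling, 81 under quantile normalization, 104 with a pseudocount of 10, 0 without a variance trend and 118 with at least 10 in every library. Leaving out 1 experiment gave 28 (experiment 35), 73 (experiment 36) and 45 (experiment 37). Of the members, 0 were called without the block under every alternative run. With it 1 was called (*Wars*), as under the other scaling, 0 under quantile normalization or without a variance trend, 2 with a pseudocount of 10 (*Cbs*, *Wars*), 3 with at least 10 in every library (*Asns*, *Cbs*, *Wars*), and 0 to 2 with 1 experiment left out (2 without experiment 36, *Asns* and *Cbs*).

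The experiment effect was called in 855 genes, in 0 without a variance trend and in 72 to 1353 with 1 library left out (72 without pseudo-beta of experiment 37, 1353 without pseudo-islets of experiment 36). Of the members it was called in 4, in 2 under quantile normalization (6.55% of all genes), in 0 without a variance trend and in 0 to 6 with 1 library left out.

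The number of members higher in pseudo-islets lay between 23 (without pseudo-beta of experiment 37) and 34 over the 20 alternatives, and their median log2 fold change between 0.10 and 0.24. Of the 36 members 18 kept 1 sign throughout. Further lists had 0 calls in all 20. The depth is unknown, which leaves the counting error of low genes such as *Slc7a11* unmeasured.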
